A study of Mus musculus with 10 samples.

Results

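The genes described here are 33 genes of meiosis, the division by which spermatocytes recombine their chromosomes and become haploid. They were chosen for their known roles in meiosis and taken by gene symbol, and all 33 of the 33 listed are on the array, among 24185 named genes. Expression was measured in mouse spermatogonia on Agilent whole mouse genome arrays with Cy3 as the only dye, with 1 array per sample and 10 arrays in all. Germline stem (GS) cells, which are cultured spermatogonia, were kept for 3 days without FGF2 and GDNF and then for 24 hr with 100 ng/mL FGF5 or without it, with 2 samples per condition. GFRα1+ spermatogonia were sorted as GFP+ cells from testes of Gfrα1-GFP mice of 2.5 months of age, with 3 samples from WT and 3 from Fgf5-/- mice. The comparisons ask whether FGF5, or its loss in the testis, goes with a different level of meiosis genes in these cells.
By the methods the GS cells came from crossing C57BL/6 with ICR mice, whereas their labels name C57BL/6 alone. Sorted cells are labelled C57BL/6 too, and the Fgf5-/- mice carried the go-moja allele of Fgf5. Both genotypes of sorted cells carried the GFP reporter in the Gfrα1 locus. Nothing in the labels or the methods used here states whether the samples of a group came from separate cultures or mice or whether mice were pooled, so p-values measure only the spread between these samples, which may be technical. The 4 arrays of GS cells were on a slide of their own and the 6 arrays of sorted cells on another, so that slide, strain and culture cannot be told apart from the kind of cell.

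In the testis, undifferentiated spermatogonia such as GFRα1+ cells divide by mitosis, and their progeny enter meiosis only after a retinoic acid signal. In meiotic prophase, cohesin complexes organise each chromosome into an axis, programmed breaks are made in the DNA and repaired from the homologous chromosome, and the synaptonemal complex joins the homologues along their length until crossovers have formed. Transcripts of a number of meiosis genes are known to be present in spermatogonia already, before the proteins have a known task there.

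All values below are log2 signals of a gene's brightest probe, less the 75th percentile on that array, so that 0 is that percentile and a difference of 1 is 2-fold. Levels of different genes cannot be ranked from them, because probes differ in how well they bind, and the brightest gene of a list is only the one whose probe gave most signal. Of 55681 probes, each array had between 55.3% and 65.9% well above background, and Fgf5-/- replicate 1 had the highest share.

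The probe of Fgf5 read -2.89 and -3.92 in GS cells with FGF5, -2.81 and -2.88 in those without, -5.47, -6.59 and -6.66 in WT cells and -3.42, -6.83 and -6.90 in Fgf5-/- cells. It was well above background on all 4 arrays of GS cells, on 0 of 3 WT arrays and on 1 of 3 Fgf5-/- arrays, that of replicate 1. Sorted cells of either genotype were thus mostly at background. The exception, Fgf5-/- replicate 1 at -3.42, lay above every WT array and within the range of the GS cells. Where the probe lies relative to the change in the go-moja allele is not given, so the probe gives no check of the genotype. The label of replicate 1 was kept as given and was not tested. Among 12 markers of undifferentiated spermatogonia, Etv5, an ETS factor downstream of FGF and GDNF signals, differed most with FGF5. Etv5 read 3.05 and 4.32 with FGF5 and 0.51 and -0.99 without, but did not pass the test described below. Of the 12 markers, 8 were lower with FGF5. Of 12 markers of undifferentiated spermatogonia, 12 were well above background on all 10 arrays. Their summed signal, as multiples of the 75th percentile, was 183 and 189 with FGF5, 186 and 195 without, 238, 220 and 232 in WT cells and 194, 221 and 221 in Fgf5-/- cells, and their brightest gene was Zbtb16 in both kinds of cell. The 9 markers of differentiating spermatogonia were also above background on all 10 arrays.

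Of the 33 meiosis genes, 31 (93.9%) were well above background on all 10 arrays, against 14819 (61.3%) of the named genes on the array. None of the 33 was at background on every array, as were 3812 named genes (15.8%). The exceptions were Spo11 and Mei4, which both act in making the programmed DNA breaks. Spo11 was above background on 2 of 4 arrays of GS cells and on all 6 arrays of sorted cells, and Mei4 on all 4 arrays of GS cells and on 2 of 6 of sorted cells. A dimmer probe of Mei4 was above background on all 10 arrays. All 6 genes of the synaptonemal complex (Sycp1, Sycp2, Sycp3, Syce1, Syce2 and Tex12) were above background throughout, as were the 4 of meiotic cohesin (Rec8, Smc1b, Stag3 and Sgol2) and the 3 of the checkpoint on the chromosome axis (Hormad1, Hormad2 and Trip13). The same held for Mei1 and Prdm9 in break formation, for the 6 genes of strand exchange and repair (Dmc1, Psmc3ip, Mnd1, Brca2, Tex15 and H2afx), and for the 4 of crossover formation (Mlh3, Msh4, Msh5 and Tex11). It also held for Tex14 of the bridges between germ cells and for the 5 genes best known from spermatocytes (Boll, Ccna1, Hspa2, Ldhc and Pgk2). Of 43 other meiosis genes found on the array, out of 45 listed, 41 (95.3%) were above background on all 10 arrays. A signal in a bulk sample does not say how many cells carry the transcript, and fewer cells of a type and less RNA per cell cannot be told apart.

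**Figure D1:**
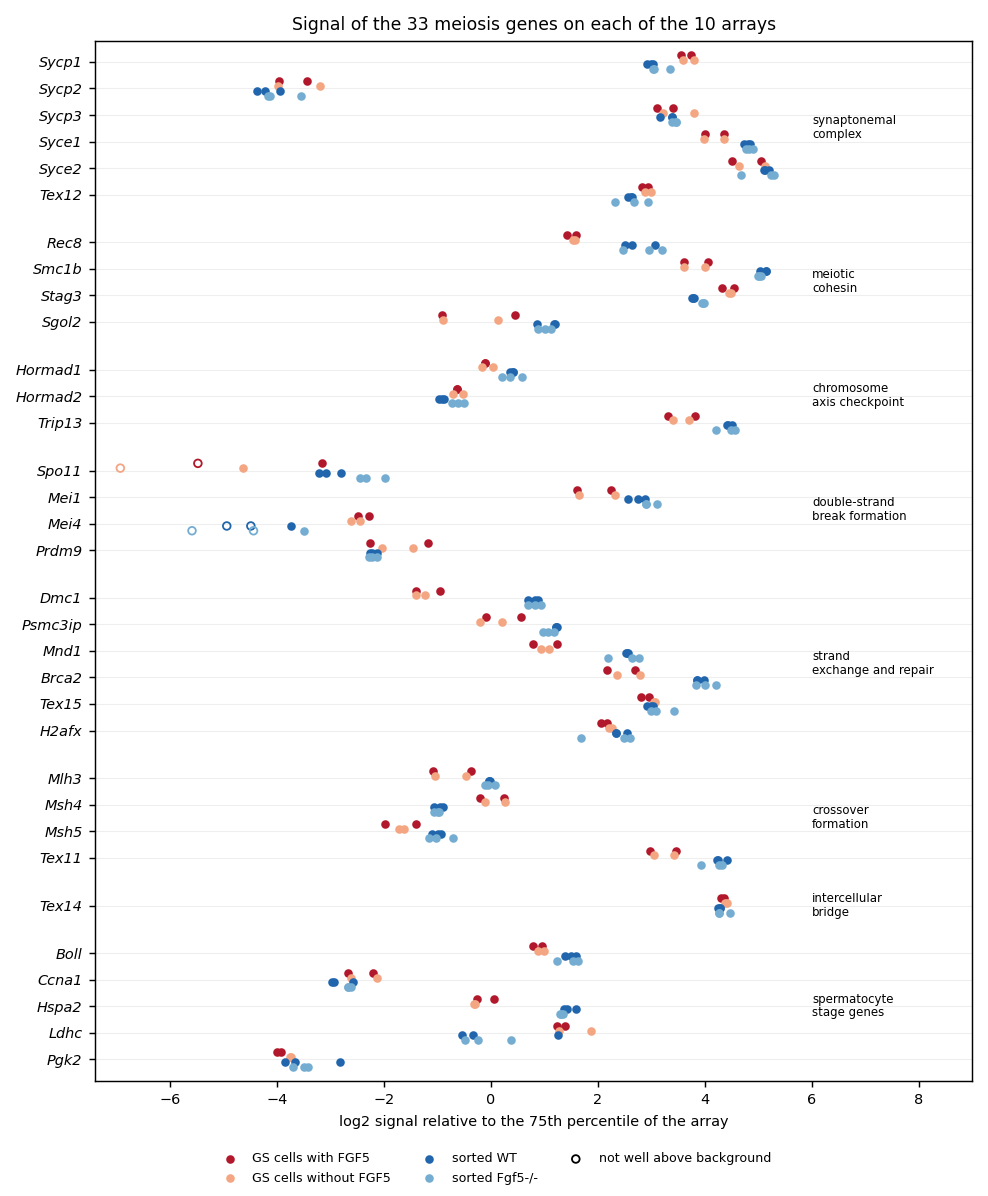
Log2 signal less the array's 75th percentile (x axis) of each of the 33 meiosis genes (y axis, by role), with 1 point per array and the 4 groups in colour; open circles are arrays on which the probe was not well above background. The 2 genes with open circles are Spo11, on 2 of 4 arrays of GS cells, and Mei4, on 4 of 6 arrays of sorted cells; the blue points of Dmc1 (0.69 to 0.94) lie to the right of its red points (-1.40 to -0.96).

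Cultured and sorted spermatogonia were then compared over all 10 arrays, with the mean of both GS groups set against the mean of both sorted groups. Of the 33 meiosis genes, 22 (66.7%) passed an adjusted p of 0.05 in limma with Benjamini-Hochberg adjustment, against 67.7% of the 35826 tested probes, so that the share of changed genes was near that of the array. The same 22 had an unadjusted p under 0.05, against 70.6% of all probes. They were split otherwise than the array, with 17 lower in culture, against 25.7% of all probes, and 5 higher, against 41.9%. Spo11 and Mei4 entered the test only through the kind of cell in which they were high, so their tests are no support; of the other 31 genes 20 passed, 16 lower and 4 higher. The arrays of the 2 kinds of cell did not overlap for 20 of the 33, against 55.7% of all probes. The median difference of the 33 was -0.48, and that of all tested probes 0.26. That median of all probes moved with the scaling, to 0.12 after quantile normalization, 0.27 after normexp background correction, 0.21 in the deposited table and 0.39 with the percentile taken over probes above background. Relative to it, the median of the meiosis genes was -0.74 as given here and -0.62, -0.75, -0.74 and -0.74 under these scalings in turn, and 24 of the 33 lay below it, or 25 after normexp. The 22 genes that passed kept their direction and their call under each of these scalings. The comparison with the array also depended on the filter. With only probes above background on all 10 arrays, which leaves out Spo11 and Mei4, the median of all tested probes was 0.08. Of the probes that passed there, 54.8% were higher in culture, against 62% with the filter used here.

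**Figure D2:**
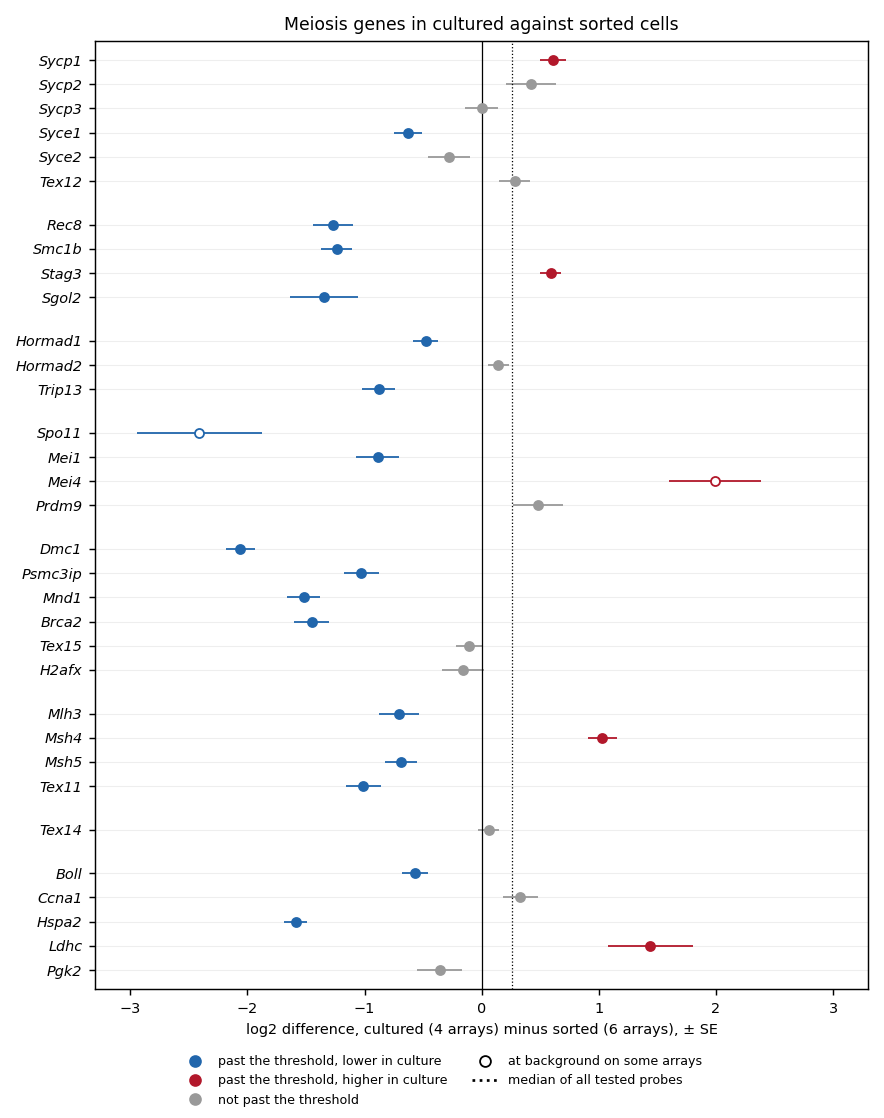
Log2 difference of cultured minus sorted cells (x axis) with its standard error for each of the 33 meiosis genes (y axis, by role); blue and red points passed an adjusted p of 0.05 in limma, open points were at background on some arrays, and the dotted line is the median of all tested probes (0.26). Of the 33 points, 17 are blue and 5 are red, with Dmc1 (-2.06) and Ldhc (1.44) outermost among filled points, while the places of the open points rest on arrays at background; grey points did not pass, and Sycp2, Sycp3, Tex15, Ccna1 and Pgk2 among them changed sign under 1 or more scalings.

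Within roles of so few genes the counts below are descriptions, with 67.7% of all probes passing, and no role was tested. Of the 6 genes of strand exchange and repair 4 passed, all lower in culture. Dmc1, the recombinase that acts only in meiosis, read -1.40 and -0.96 with FGF5, -1.40 and -1.24 without, 0.69, 0.83 and 0.87 in WT cells and 0.70, 0.83 and 0.94 in Fgf5-/- cells. Every array of GS cells was thus lower than every array of sorted cells, and within a kind of cell the groups overlapped. Its signal (probe at chromosome 15, 79415293 to 79415352, mm9) was 4.16-fold lower in culture, a log2 difference of -2.06 with a standard error of 0.12 (limma adjusted p = 4.64e-06). The other 2 probes of Dmc1 gave -2.08 and -1.78. Mnd1 and Psmc3ip encode the partners that together help the recombinase to invade the homologous strand. Mnd1 read 0.78 and 1.23 with FGF5, 0.94 and 1.09 without, 2.57, 2.52 and 2.54 in WT cells and 2.19, 2.63 and 2.76 in Fgf5-/- cells, and was 2.88-fold lower in culture (limma adjusted p = 4.4e-05). Psmc3ip read -0.09 and 0.57 with FGF5, -0.21 and 0.21 without, 1.22, 1.21 and 1.24 in WT cells and 0.97, 1.07 and 1.18 in Fgf5-/- cells, and was 2.04-fold lower (limma adjusted p = 0.000424). For both partners the highest array of GS cells lay below the lowest array of sorted cells, and a further probe of Mnd1 gave -1.56. Brca2, which loads recombinases onto single-stranded DNA, read 2.17 and 2.70 with FGF5, 2.35 and 2.79 without, 3.99, 3.85 and 3.85 in WT cells and between 3.84 and 4.20 in Fgf5-/- cells. It was 2.74-fold lower in culture, again without overlap (limma adjusted p = 6.28e-05). The remaining genes of this role did not pass. H2afx, the histone variant phosphorylated at breaks, differed by -0.16 ± 0.18 (SE) and passed, lower in culture, without Fgf5-/- replicate 1. Tex15, needed for repair of meiotic breaks, differed by -0.11 ± 0.11 (SE). Its sign was opposite after quantile normalization and with the percentile over probes above background. The dimmer probe of Tex15, above background on all 10 arrays, gave -0.42 ± 0.30 (SE) and did not pass (limma adjusted p = 0.239).

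The genes that make the breaks moved in both directions. Spo11, the enzyme that cuts the DNA, read -5.48 and -3.16 with FGF5, -6.93 and -4.63 without, -2.80, -3.21 and -3.08 in WT cells and -1.98, -2.33 and -2.44 in Fgf5-/- cells. Replicate 1 of each GS condition was at background, and replicate 2 with FGF5 reached the range of WT cells. Spo11 was at least 3.40-fold lower in GS cells than in sorted cells by their means. A bound of this kind takes, on each array of the dimmer side, the higher of the probe's own signal and the lowest signal well above background. With only the GS cells with FGF5 set against WT cells Spo11 did not pass, and bounds of this kind hold for the scale used here only, as after normexp with its offset Spo11 differed by -0.75 and Mei4 by 1.11. Mei4, a partner of Spo11 in break formation, read -2.29 and -2.48 with FGF5, -2.62 and -2.45 without, -4.94, -3.73 and -4.49 in WT cells and -3.49, -4.44 and -5.59 in Fgf5-/- cells. All arrays of GS cells were higher than all those of sorted cells, on 4 of which the probe was at background. By this probe Mei4 was at least 3.55-fold higher in culture. Its dimmer probe, above background on all 10 arrays, was 1.33-fold higher, a log2 difference of 0.41 (limma adjusted p = 0.00415). Mei1, which is needed for meiotic breaks, read 1.61 and 2.25 with FGF5, 1.65 and 2.31 without, 2.88, 2.56 and 2.74 in WT cells and 3.11, 2.89 and 2.90 in Fgf5-/- cells. The GS arrays were all lower, by 1.85-fold (limma adjusted p = 0.0022). Prdm9, the histone methyltransferase that marks the places of breaks, differed by 0.48 ± 0.21 (SE) and did not pass (limma adjusted p = 0.0746), although it did after normexp and with the percentile over probes above background, while its dimmer probe, above background on 8 arrays, did and was at least 1.52-fold higher.

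The 4 genes of meiotic cohesin passed, as did 67.7% of all probes, with 3 lower in culture and 1 higher. Rec8, the cohesin subunit cleaved when meiotic chromosomes part, read 1.59 and 1.42 with FGF5, 1.57 and 1.54 without, 3.06, 2.51 and 2.63 in WT cells and 2.46, 2.95 and 3.20 in Fgf5-/- cells. Smc1b, the meiotic form of a core cohesin subunit, read 3.60 and 4.05 with FGF5, 3.61 and 4.01 without, 5.14, 5.03 and 5.14 in WT cells and 5.01, 5.04 and 4.99 in Fgf5-/- cells. Neither gene overlapped between the kinds of cell, and they were 2.41-fold and 2.36-fold lower in culture (limma adjusted p = 0.00028 and 6.15e-05). Sgol2, a shugoshin that protects cohesin at centromeres and is named Sgo2a in RefSeq, read -0.91 and 0.45 with FGF5, -0.89 and 0.14 without, 1.20, 1.18 and 0.86 in WT cells and 1.13, 1.01 and 0.87 in Fgf5-/- cells. It was 2.54-fold lower in culture (limma adjusted p = 0.00332), with the nearest GS array being replicate 2 with FGF5. Stag3, the cohesin subunit found in meiotic cells, went the other way and read 4.32 and 4.55 with FGF5, 4.49 and 4.45 without, 3.75, 3.77 and 3.79 in WT cells and 3.96, 3.99 and 3.94 in Fgf5-/- cells. All 4 GS arrays were above all 6 others, and the difference was 1.5-fold (limma adjusted p = 0.000469).

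Of the 6 genes of the synaptonemal complex 2 passed, in opposite directions, against 67.7% of all probes, and under other scalings Tex12, or Sycp2 and Syce2, passed as well. Sycp1, the transverse filament that bridges the homologues, read 3.55 and 3.73 with FGF5, 3.59 and 3.79 without, 2.91, 3.03 and 3.00 in WT cells and 3.34, 3.02 and 3.05 in Fgf5-/- cells. Syce1, a protein of the central element, read 4.01 and 4.36 with FGF5, 3.99 and 4.36 without, 4.85, 4.73 and 4.80 in WT cells and 4.77, 4.90 and 4.82 in Fgf5-/- cells. Neither set of arrays overlapped, and in culture Sycp1 was 1.52-fold higher and Syce1 1.55-fold lower (limma adjusted p = 0.00116 and 0.00145). The other central element genes Syce2 and Tex12 differed by -0.28 ± 0.18 and 0.28 ± 0.13 (SE). Sycp2 and Sycp3, of the lateral element, differed by 0.42 ± 0.21 and 0.00 ± 0.14 (SE), and their signs turned under quantile normalization for Sycp2 and under normexp and in the deposited table for Sycp3.

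On the chromosome axis, Trip13, the ATPase that removes HORMA domain proteins once homologues have paired, read 3.31 and 3.82 with FGF5, 3.40 and 3.70 without, 4.43, 4.42 and 4.51 in WT cells and 4.21, 4.49 and 4.57 in Fgf5-/- cells. It was 1.84-fold lower in culture without overlap (limma adjusted p = 0.000563). Hormad1, which marks axes that have not paired, was between -0.17 and 0.04 on GS arrays and between 0.20 and 0.58 on sorted arrays and was 1.39-fold lower (limma adjusted p = 0.00376), but its dimmer probe gave -0.28 and did not pass (limma adjusted p = 0.0594). Its relative Hormad2 differed by 0.14 ± 0.09 (SE) and passed only with the percentile over probes above background.

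The 4 crossover genes passed, 3 lower and 1 higher in culture, again beside 67.7% of all probes. Msh4 and Msh5 form a complex that stabilises recombination intermediates, and they differed in opposite directions. Msh4 read -0.21 and 0.24 with FGF5, -0.11 and 0.26 without, -0.96, -1.07 and -0.89 in WT cells and -0.97, -1.06 and -0.99 in Fgf5-/- cells. Msh5 read -1.98 and -1.41 with FGF5, -1.72 and -1.62 without, between -1.11 and -0.94 in WT cells and -1.03, -0.71 and -1.15 in Fgf5-/- cells. With no overlap for either gene, Msh4 was 2.05-fold higher in culture (limma adjusted p = 0.00015) and Msh5 1.62-fold lower (limma adjusted p = 0.00274). The dimmer probes gave 1.37 for Msh4 and -0.80 for Msh5, in the same directions. Mlh3, a subunit of the endonuclease that resolves crossovers, read -1.09 and -0.37 with FGF5, -1.04 and -0.46 without, -0.02, -0.04 and -0.04 in WT cells and 0.08, -0.12 and -0.05 in Fgf5-/- cells. Sorted arrays lay close together and GS arrays apart, and the 1.64-fold lower signal in culture (limma adjusted p = 0.00545) became -0.70 with an adjusted p of 0.0542 when only GS cells with FGF5 and WT cells were compared. Tex11, an X-linked gene for a crossover factor, was between 2.97 and 3.45 on GS arrays and between 3.92 and 4.41 on sorted arrays, or 2.01-fold lower in culture (limma adjusted p = 0.000402), while its dimmer probe gave -0.14 and did not pass. Tex14, which keeps the bridges between sister germ cells open, differed by 0.06 ± 0.09 (SE) and lay between 4.25 and 4.47 on all 10 arrays.

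Of the 5 genes best known from spermatocytes, 3 passed. Hspa2, a chaperone of spermatocytes, read -0.27 and 0.05 with FGF5, -0.29 and -0.32 without, 1.58, 1.36 and 1.42 in WT cells and 1.29, 1.35 and 1.30 in Fgf5-/- cells. The arrays did not overlap, and it was 3.01-fold lower in culture (limma adjusted p = 6.95e-06). Boll, an RNA-binding protein related to Dazl, was between 0.78 and 0.99 on GS arrays and between 1.23 and 1.62 on sorted arrays and was 1.49-fold lower (limma adjusted p = 0.00197). Ldhc, the lactate dehydrogenase of male germ cells, read 1.24 and 1.39 with FGF5, 1.27 and 1.87 without, 1.26, -0.34 and -0.54 in WT cells and -0.24, -0.49 and 0.37 in Fgf5-/- cells. WT replicate 1 stood in the range of the GS cells and apart from the other 5 sorted arrays. Ldhc was 2.71-fold higher in culture (limma adjusted p = 0.00744), and against WT cells alone the difference was 1.19 with FGF5 and 1.44 without and did not pass (limma adjusted p = 0.139 and 0.0915). A dimmer probe of Ldhc gave 1.81. Pgk2, a glycolytic enzyme of late spermatocytes and spermatids, read -4.01 and -3.93 with FGF5, -3.75 and -3.73 without, -2.83, -3.85 and -3.66 in WT cells and -3.70, -3.49 and -3.42 in Fgf5-/- cells, again with WT replicate 1 above the others. It differed by -0.36 ± 0.19 (SE) with the opposite sign after normexp, and Ccna1, the cyclin of meiotic divisions, by 0.33 ± 0.15 (SE) with the opposite sign after quantile normalization. Neither of these 2 passed here, but Pgk2 passed after quantile normalization and Ccna1 after normexp and with the percentile over probes above background.

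Markers of other cell types differed between the same kinds of cell, and their part in the results on meiosis genes was not tested. Most markers given as at least a fold entered the test through the kind of cell where they were high, so counts of markers are no support. Of 10 spermatid markers, Acrv1 and Odf1 were at background on every array and 5 were above it on all 10. The summed spermatid signal was 2.65 and 2 with FGF5, 2.59 and 2.01 without, 10.2, 9.39 and 7.71 in WT cells and 5.79, 10.1 and 18.1 in Fgf5-/- cells, with Tnp1 the brightest in sorted cells and Spaca1 in GS cells. It was higher on every sorted array than on any GS array, and 6 of the 8 tested markers were lower in culture, Tnp1 by -4.52, Prm2 by -2.10, Prm1 by -1.85, Tnp2 at least 11.2-fold, Smcp at least 2.53-fold and Gapdhs at least 1.94-fold. Of the 9 differentiation markers 5 passed, Kit (-2.77) and Dnmt3b (-0.51) lower and Neurog3 (1.29), Rarg (1.28) and Sox3 (0.64) higher in culture, with a summed signal of 214, 181, 229 and 239 on GS arrays in the same order, 182, 158 and 158 in WT cells and 139, 178 and 178 in Fgf5-/- cells and Sohlh1 the brightest by the mean of either kind of cell. Of the 12 markers of undifferentiated cells 9 passed (75%, against 67.7% of all probes), 7 lower and 2 higher in culture, and the largest differences were in Etv5 (-3.50), Cdh1 (-3.16), Gfra1 (-3.01), Ret (-2.11), Nanos2 (-1.62) and Sall4 (-1.42).
Among somatic cells, 6 of 7 tested Sertoli markers passed, Clu (-4.23), Rhox5 (-2.33) and Gata4 (-0.62) lower in culture with Dhh at least 5.81-fold and Cldn11 at least 4.36-fold lower and Sox9 at least 3.78-fold higher, while Amh was at background on every array. The summed Sertoli signal was 2.86 and 2.98 with FGF5, 2.57 and 2.32 without, 10.9, 7.12 and 8.07 in WT cells and 6.44, 8.83 and 9.23 in Fgf5-/- cells, with Clu the brightest in sorted and Wt1 in GS cells. Of 8 peritubular and fibroblast markers 7 were tested and 6 passed, Col1a2 (3.66) and Acta2 (2.18) higher in culture, Dcn, Col3a1 and Myh11 at least 3.98-fold, 2.82-fold and 2.03-fold higher, and Pdgfra (-0.46) lower. Their sum was 13.5 and 5.37 with FGF5, 15.2 and 6.83 without, 4.56, 3.92 and 3.99 in WT cells and 5.43, 4.83 and 4.65 in Fgf5-/- cells, with Col1a1 the brightest and replicate 1 the higher in both GS conditions. All 5 endothelial markers passed, Vwf (4.13), Kdr (1.43) and Pecam1 (1.05) higher and Cdh5 and Tek at least 5.11-fold and 4.22-fold lower in culture. The endothelial sum was between 11.5 and 20.8 on GS arrays, higher in replicate 1 of each condition, and 4.26, 4.14 and 4.97 in WT cells and 2.74, 4.55 and 4.09 in Fgf5-/- cells, with Kdr the brightest by mean and Vwf above it in replicate 1 of both GS conditions. Of the macrophage markers Csf1r (1.71), Cd68 (1.05) and Cd14 (0.62) were higher in culture, with a sum of 4.65, 4.51, 4.17 and 3.78 on GS arrays in that order, 1.60, 1.86 and 2.08 in WT cells and 1.03, 2.06 and 1.84 in Fgf5-/- cells. Emr1 was above background on only 3 GS and 2 sorted arrays and gets no fold, Lyz2 was above it on none, and Csf1r was the brightest. Of 5 Leydig markers found, Cyp11a1 and Lhcgr were at background on every array and the 2 tested, Cyp17a1 (2.30) and Star (0.70), were higher in culture. Their sum, led by Cyp17a1, was 6.65, 4.99, 6.56 and 5.18 on GS arrays in that order, 1.76, 1.57 and 1.96 in WT cells and 0.424, 1.55 and 1.17 in Fgf5-/- cells.

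The promoters of the meiosis genes were read from the RefSeq sequences of GRCm38.p6, which hold 300 bases around the start of a gene, 50 of them after it. They held 36 promoters of 29 of the 33 genes, and Spo11, Tex11, Tex15 and H2afx were not among them. The motif TCCCGC, searched on both strands, was in 21 of the 36 (58.3%), against 6562 of all 32851 promoters (20%). CACGTG, the letters of an E-box, was in 8 (22.2%), against 7.15% of all, and CNCCTCAG in 6 (16.7%), against 7.94%. Both TCCCGC and CACGTG were in 7 (19.4%), against 1.99% of all. Promoters of the same gene can overlap, so they are not separate observations. Those of Hormad1, which start at 95559427 and 95559429 on chromosome 3, are nearly the same sequence and each is counted among the 7. Those of Mlh3 overlap in the same way but hold neither motif. The promoters of meiosis genes also held more CpG, with a median of 19, against 7 in all promoters, and their part in these shares was not tested. TCCCGC was in 12 of 19 promoters of genes lower in culture, in 2 of 6 of genes higher in culture and in 7 of 11 of the others. These matches describe the letters only, and the motifs and the 4 promoters printed here were chosen after the values were seen.
Those of Dmc1 and Mnd1 are shown because both genes were lower in culture on every array and act in strand exchange, and those of Stag3 and Sycp1 because these genes were higher on every array. Capitals mark TCCCGC and CACGTG on either strand, which overlapped in 0 places, and each sequence is 300 bases long and written from 5′ to 3′ on the strand of the gene. The promoter of Dmc1 lies at chr15:79605060-79605359 on the minus strand and has TCCCGC at 2 places. That of Mnd1 lies at chr3:84155737-84156036 on the minus strand and has it at 1 place. That of Stag3 lies at chr5:138280259-138280558 on the plus strand and that of Sycp1 at chr3:102936051-102936350 on the minus strand, and each has 1 TCCCGC and 1 CACGTG.
Dmc1: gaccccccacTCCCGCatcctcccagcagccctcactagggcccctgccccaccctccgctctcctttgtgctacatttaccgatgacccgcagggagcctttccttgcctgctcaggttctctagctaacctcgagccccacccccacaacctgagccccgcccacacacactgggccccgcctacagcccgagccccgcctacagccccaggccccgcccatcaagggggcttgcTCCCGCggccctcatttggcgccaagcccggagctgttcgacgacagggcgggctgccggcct
Mnd1: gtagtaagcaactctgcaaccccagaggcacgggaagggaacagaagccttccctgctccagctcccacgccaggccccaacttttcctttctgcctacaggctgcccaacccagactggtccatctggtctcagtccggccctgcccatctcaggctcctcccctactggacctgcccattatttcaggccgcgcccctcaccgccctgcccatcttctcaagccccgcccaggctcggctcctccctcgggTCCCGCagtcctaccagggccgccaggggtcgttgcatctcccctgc
Stag3: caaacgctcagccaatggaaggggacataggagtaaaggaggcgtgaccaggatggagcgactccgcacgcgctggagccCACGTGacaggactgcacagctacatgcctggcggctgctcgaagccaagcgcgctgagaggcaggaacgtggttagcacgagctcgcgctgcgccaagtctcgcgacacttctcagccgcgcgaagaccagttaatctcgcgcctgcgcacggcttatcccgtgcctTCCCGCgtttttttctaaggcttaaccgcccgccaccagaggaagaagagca
Sycp1: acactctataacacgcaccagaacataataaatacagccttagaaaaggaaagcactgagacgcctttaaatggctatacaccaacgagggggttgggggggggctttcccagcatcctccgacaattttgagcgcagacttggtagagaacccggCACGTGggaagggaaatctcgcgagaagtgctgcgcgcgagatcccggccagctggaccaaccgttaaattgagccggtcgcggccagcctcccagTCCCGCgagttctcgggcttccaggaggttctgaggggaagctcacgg

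FGF5 in culture changed no meiosis gene past the threshold. Among 34612 probes limma called 0 (0%) at an adjusted p under 0.05, and 882 (2.55%) had an unadjusted p under 0.05. Of the 33 meiosis genes 32 were tested, all but Spo11, and 0 had an unadjusted p under 0.05. Their median difference, with minus without FGF5, was -0.05, against -0.03 for all probes, with 10 positive and 22 negative, against 14315 and 20297 of all probes, of which Rec8 and Tex11 changed sign after normexp. With 1 array left out that median lay between -0.19 and 0.16, so that its sign turned. In 5 of the 32, against 22.7% of all probes, both arrays of a condition lay beyond both of the other, namely Tex15, H2afx, Tex14 and Pgk2, lower with FGF5, and Hspa2, higher. By the brightest probes the largest of the 32 differences was -0.25 in Ldhc, with a standard error of 0.25, and in Sycp3 it was -0.24 ± 0.26 (SE). With the array of replicate 2 without FGF5 left out, each of these became 0.04. Psmc3ip differed by 0.24 ± 0.30 (SE), Pgk2 by -0.23 ± 0.16, Hspa2 by 0.20 ± 0.19 and Tex15 by -0.18 ± 0.16. Mei4 differed by 0.15 ± 0.17 (SE), and by -0.12 in its dimmer probe, and Brca2 by -0.14 ± 0.27, and the adjusted p of each of these 8 genes was 1 in limma. Psmc3ip became -0.09 without replicate 2 with FGF5, and Brca2 0.12 and 0.08 without replicate 1 with FGF5 or replicate 2 without it. With 1 array left out Hspa2 lay between 0.04 and 0.36, Mei4 between 0.05 and 0.25 and Tex15 between -0.26 and -0.11, and Pgk2 was -0.09 after normexp. Dimmer probes gave larger differences in Prdm9 (-0.49 ± 0.26 (SE), against 0.02) and Tex15 (-0.41 ± 0.17). In each, both arrays with FGF5 lay below both without. The dimmer probe of Msh5 went the other way (0.23, against -0.02). With 2 arrays per condition, changes of the size of these standard errors were not resolved. Of the 12 markers of undifferentiated spermatogonia 0 passed either and 3 had an unadjusted p under 0.05, namely Etv5 (3.92), Ret (1.44) and Id4 (0.91). Gfra1 differed by 1.55 and was not among the 3, and of the 12 markers 4 were positive and 8 negative, with a median of -0.07. Of 6 tested Sertoli markers 5 were positive and 1 negative, with a median of 0.55, and 0 had an unadjusted p under 0.05. Both arrays with FGF5 lay above both without for Clu (0.61), Rhox5 (0.50) and Wt1 (0.15). The same held for Dhh, which was at background without FGF5. Dhh was tested only through the arrays with FGF5, where it was high, so its place among the 5 and in that median is no support. Whether these markers had a part in the results on meiosis genes was not tested.

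**Figure D3:**
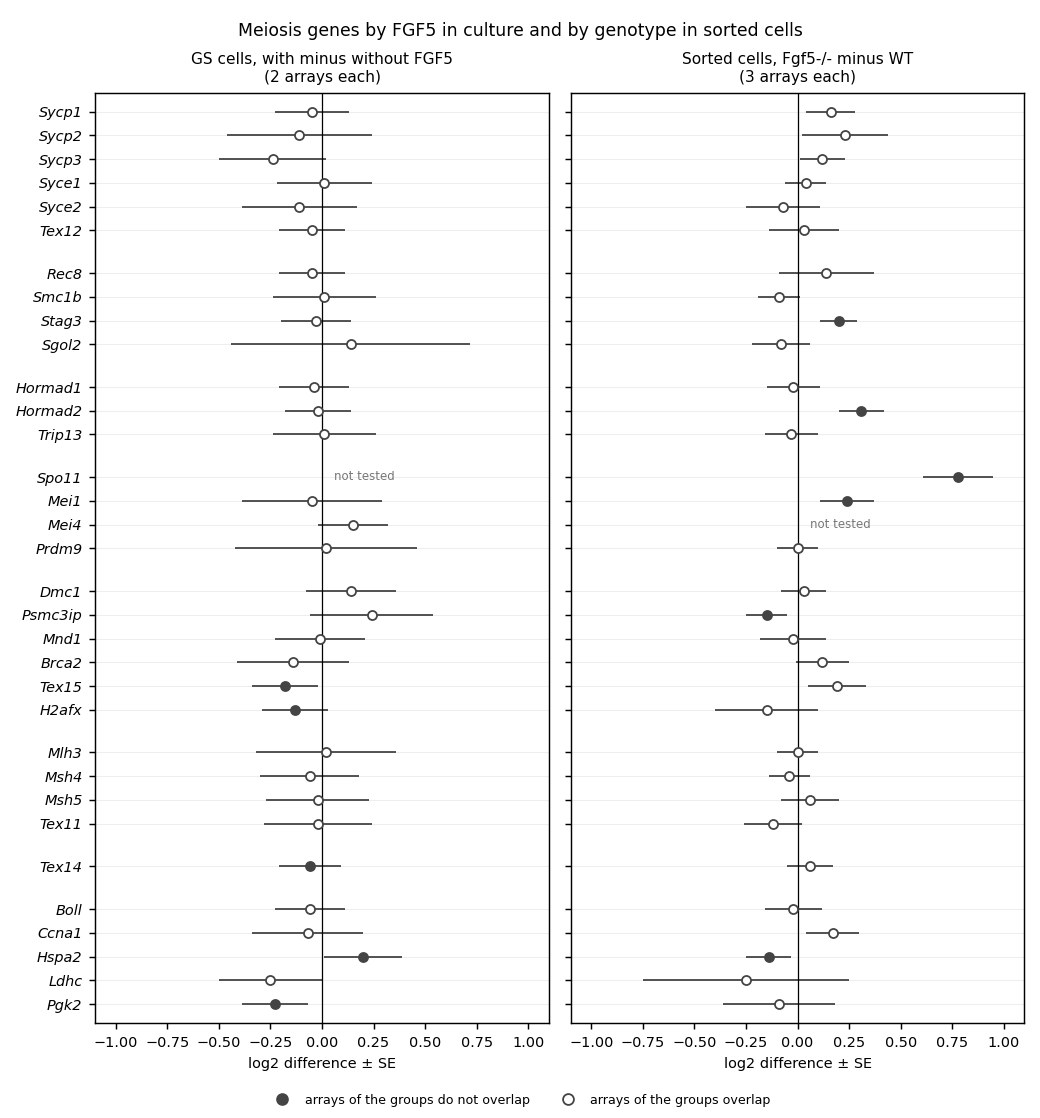
Log2 difference with its standard error (x axis) of the 33 meiosis genes (y axis, by role), 32 of them tested on each side, between GS cells with and without FGF5 (left, 2 arrays each) and between Fgf5-/- and WT sorted cells (right, 3 arrays each). Filled points are genes whose arrays did not overlap between the groups, 5 on the left and 6 on the right; 0 genes passed an adjusted p of 0.05 in limma on either side, and the largest difference of a tested gene is that of Spo11 on the right (0.78).

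The genotype of the sorted cells likewise changed no meiosis gene past the threshold. Here limma called 0 (0%) of 30285 tested probes, and 2055 (6.79%) had an unadjusted p under 0.05. Of the 33 meiosis genes 32 were tested, all but Mei4, and 2 (6.25%) had an unadjusted p under 0.05, a share near that of all probes. The dimmer probe of Mei4, above background on all arrays, differed by -0.23 ± 0.10 (SE), with all Fgf5-/- arrays lower, and did not pass (limma adjusted p = 0.731). The median difference, Fgf5-/- minus WT, was 0.02, against -0.03 for all probes. This median was -0.03 without Fgf5-/- replicate 3, so that its sign turned, and 0.07 without Fgf5-/- replicate 1. After quantile normalization it was 0.08, and 6 of the 32 genes changed sign. The arrays did not overlap for 6 of the 32, against 16.2% of all probes, with Stag3, Hormad2, Spo11 and Mei1 higher in Fgf5-/- cells and Psmc3ip and Hspa2 lower.
Spo11 had the largest difference of the 32. Its WT arrays read from -3.21 to -2.80 and its Fgf5-/- arrays from -2.44 to -1.98, all of them above background and without overlap. It was 1.72-fold higher in Fgf5-/- cells, a log2 difference of 0.78 ± 0.17 (SE), with an adjusted p of 0.728 in limma, and higher by between 0.65 and 0.90 with any 1 array left out and by 0.43 after normexp. Hormad2 read -0.98, -0.91 and -0.88 in WT cells and -0.50, -0.73 and -0.62 in Fgf5-/- cells, a difference of 0.31 ± 0.11 (SE). All 3 Fgf5-/- arrays were higher, and the adjusted p in limma was 0.728 here too. Stag3 was higher by 0.20 ± 0.09 (SE) and Mei1 by 0.24 ± 0.13, each on 3 of 3 arrays. Sycp2 differed by 0.23 ± 0.21 (SE) with the opposite sign after normexp, Tex15 by 0.19 ± 0.14 and Ccna1 by 0.17 ± 0.13, and in these 3 genes the genotypes overlapped. Without Fgf5-/- replicate 1 Sycp2 differed by 0.03 and Tex15 by 0.06. Ldhc differed by -0.25 ± 0.50 (SE) and by 0.32 without WT replicate 1. The adjusted p of these genes lay between 0.728 and 0.905 in limma. Of the spermatid markers, Prm1 differed by 0.61, Prm2 by 0.59 and Tnp2 by 0.38, while Tnp1 (-0.10) and Spaca1 (-0.05) went the other way, and 0 passed, with 0 at an unadjusted p under 0.05. For Prm1, Prm2 and Tnp2 only Fgf5-/- replicate 3 lay above the WT arrays, and the other Fgf5-/- arrays lay within their range. Of 5 tested peritubular and fibroblast markers 0 passed and 2 had an unadjusted p under 0.05. Col3a1, above background on 1 of 3 WT arrays, read at least 3.52-fold higher in Fgf5-/- cells, on all 3 arrays. It entered the test only through the Fgf5-/- group, where it was high, so its test is no support. Col1a2 (-0.71), the other of the 2, went the opposite way. Of the other 3 Col1a1 (0.34) was higher and Acta2 (-0.19) and Pdgfra (-0.08) lower. Of the 12 markers of undifferentiated spermatogonia 0 passed, with 3 positive and 9 negative. Cdh1 (-0.49) and Etv5 (-0.31) had an unadjusted p under 0.05 and were lower on all Fgf5-/- arrays. Of 6 tested Sertoli markers 3 were positive and 3 negative, with Cldn11 at -1.01. The 2 tested Leydig markers were Cyp17a1 (-1.06), lower on all Fgf5-/- arrays, and Star (0.05). Neither list had an unadjusted p under 0.05. What part any of these markers had was not tested.

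Replicates of a group differed more in culture than FGF5 did. For the 32 tested meiosis genes the difference between replicates 2 and 1, averaged over both conditions, had a median size of 0.35, and the median absolute difference with FGF5 0.06, against 0.21 and 0.10 over all probes. The replicate difference was the larger of these in 26 of the 32 (81.2%), against 67.7% of all probes. In 5 of the 32 (15.6%), against 10.8% of all probes, replicate 2 differed from replicate 1 by over 0.5 in the same direction in both conditions. Sgol2 was higher in replicate 2 by 1.36 with FGF5 and by 1.03 without. Prdm9 was higher by 1.09 and 0.59, Mlh3 by 0.72 and 0.58 and Mei1 by 0.64 and 0.66 in the same order. Sycp2 was lower in replicate 2, by -0.53 and -0.79. Spo11, which was not tested, was above background in replicate 2 of both conditions and at background in replicate 1. Of the other meiosis genes, Tex19.1, which acts in silencing retrotransposons and in synapsis, read 2.12 and 6.52 with FGF5, 2.06 and 6.21 without, 6.73, 6.79 and 6.82 in WT cells and 6.30, 6.73 and 6.72 in Fgf5-/- cells. Replicate 2 of either condition was near the sorted cells and replicate 1 far below them. The peritubular and fibroblast sums given above were higher in replicate 1 mostly through Col1a1, with Myh11 and Pdgfra in the same direction, while Col1a2, Col3a1 and Dcn were higher in replicate 2 of both conditions, and their part in these differences was not tested.
In sorted cells the meiosis genes varied less, with a median SD of 0.08 in WT and 0.16 in Fgf5-/- cells, against 0.13 and 0.21 over all probes, while in culture it was 0.28 with FGF5 and 0.18 without, against 0.17 in each. The median signal of the 33 genes was 0.78 and 1.23 with FGF5, 0.94 and 1.09 without, 1.58, 1.49 and 1.42 in WT cells and 1.29, 1.54 and 1.62 in Fgf5-/- cells. Every sorted array was thus above every GS array. The largest SD among the WT arrays was that of Ldhc (0.99), through replicate 1. Among the Fgf5-/- arrays it was, for the 32 genes tested there, that of H2afx (0.49), which read 1.69 on replicate 1 and 2.48 and 2.59 on the others. Replicate 1 of Fgf5-/- also held the lowest of the 6 sorted values of Syce2 (4.67), Trip13 (4.21), Mnd1 (2.19), Tex11 (3.92) and Boll (1.23), the highest of Sycp1 (3.34), Hormad2 (-0.50), Spo11 (-1.98), Mei1 (3.11), Brca2 (4.20), Tex15 (3.43) and Tex14 (4.47), among others, and the largest share of probes above background of all arrays.

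**Figure D4:**
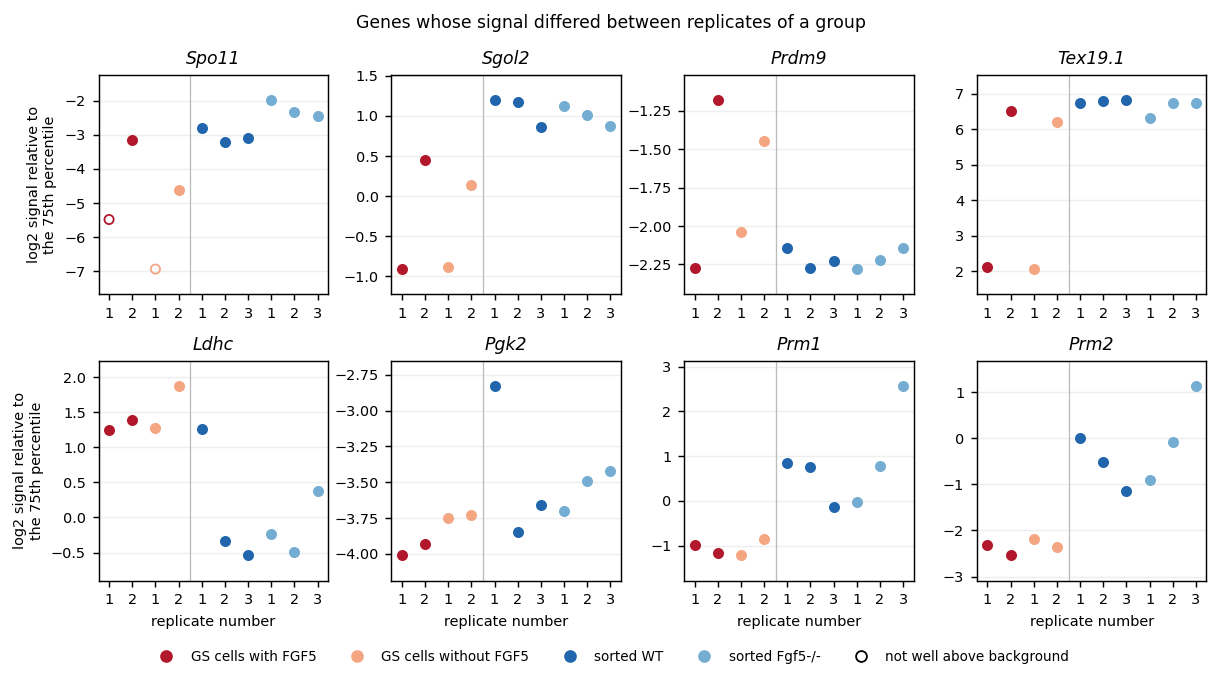
Log2 signal less the array's 75th percentile (y axis) on each array, by replicate number (x axis), for 5 meiosis genes (Spo11, Sgol2, Prdm9, Ldhc and Pgk2), Tex19.1 of the other meiosis genes and the spermatid markers Prm1 and Prm2, which were chosen for display after their values were seen; open circles mark arrays on which Spo11 was at background. In both GS conditions replicate 2 is above replicate 1 in the top panels, by 1.36 and 1.03 for Sgol2, and WT replicate 1 stands apart in Ldhc (1.26 against -0.34 and -0.54) and Pgk2 (-2.83 against -3.85 and -3.66).

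The other meiosis genes, a list of 45 of which Meiosin and Ankrd31 were not found on the array, were looked at in the same way. Between cultured and sorted cells 30 of the 43 (69.8%, near the 67.7% of all probes) passed in limma, 19 lower in culture and 11 higher, with a median of -0.19. Stra8, which is induced by retinoic acid and needed to enter meiosis, read 2.65 and 2.57 with FGF5, 2.78 and 3.28 without, 6.14, 5.77 and 5.76 in WT cells and 6.05, 5.98 and 6.09 in Fgf5-/- cells. Its GS arrays were all lower, by 8.84-fold (limma adjusted p = 1.04e-06). Tex19.1 was lower by -2.45 (limma adjusted p = 0.0485), through replicate 1 of each GS condition. Majin, which ties telomeres to the nuclear envelope, was at least 4.88-fold lower in culture, and Spdya, a CDK activator at telomeres, and Sgol1, the shugoshin of mitosis, were lower by -1.60 and -1.39. Meiob, a single-strand DNA binding protein of meiotic repair, was higher by 2.05 (limma adjusted p = 7.59e-05). With FGF5, 42 of these genes were tested and 0 passed or had an unadjusted p under 0.05. The largest differences were those of Spdya (-0.55) and Stra8 (-0.42). Each had 1 array without FGF5 apart from the other 3, replicate 1 for Spdya and replicate 2 for Stra8. Both arrays of Stra8 with FGF5 nonetheless lay below both without, whereas those of Spdya overlapped. Beside these, Majin was at background on 1 of 2 arrays without FGF5 and was tested only through the arrays with it. Its conditions overlapped, with a difference of 0.37 ± 0.54 (SE). By genotype 43 were tested and 0 passed. An unadjusted p under 0.05 was reached by 3 (6.98%, near the 6.79% of all probes), Six6os1 (0.53), Hfm1 (0.33) and Zfp541 (0.33). Mcmdc2 (0.42, above background on 2 of 3 Fgf5-/- arrays) and Meikin (-0.38) were not among the 3, and each had 1 array apart from the rest, Fgf5-/- replicate 1 for Mcmdc2 and WT replicate 3 for Meikin.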

How the data were processed

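Feature Extraction (10.7.3.1 in the submitters' notes, 10.7.1.1 per the file headers) gave the deposited spot intensity, background-subtracted and on a linear scale. The authors' deposited table of log2 values, made in GeneSpring with a floor of 1 and a 75th percentile shift, differs from the scanner log2 by 1 constant per array. Floor and shift were repeated on the scanner values, leaving out uneven and outlier spots (117 to 205 per array). Copies of a probe were averaged, and a gene was read from its brightest probe (45 probes for the 33 genes, 11 genes with several). A probe was tested if at least 1 group had it well above background on all arrays, with limma 3.58.1 in R 4.3.3 (lmFit and eBayes, two-sided, Benjamini-Hochberg over tested probes, threshold 0.05), on the 4 GS arrays, the 6 sorted arrays, or all 10. The procedure was tested on simulated data. Gene names are those of the files, with accessions of 27509 of 55681 probes found in a RefSeq table; probe positions are in mm9. Named were all genes that passed or, where fewer than 8 did, the 8 with the largest differences; of other lists, at most 6 that passed, or else 3. Members and lists were chosen with earlier results of these data known. Alternatives were other scalings, background corrections, filters, variance trends, spots, probe rules, a replicate block, GS conditions against WT, and each array left out.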

Additional observations from a re-analysis of the deposited data

How the results depend on the processing

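Between cultured and sorted cells, 478 of 482 values of the 22 genes that passed kept direction and call over 22 alternatives; the 4 that kept only the direction came from comparisons with WT alone (Ldhc 1.19 and 1.44, Mlh3 -0.70, and Spo11, which was at background on 1 of those arrays). The number of meiosis genes that passed lay between 19 and 26, and was 20 with the filter of every array, which did not test Spo11 and Mei4. With the other background flag 33 genes were above background on all 10 arrays, and with any probe 32.
With 1 array left out, the difference with FGF5 ranged from -0.55 to 0.04 in Ldhc, -0.53 to 0.04 in Sycp3, -0.09 to 0.57 in Psmc3ip and -0.40 to 0.12 in Brca2, and that by genotype from -0.58 to 0.32 in Ldhc. The difference of Sycp2 by genotype also changed sign, after normexp. The number of probes changed by genotype was 0 to 6 with 1 array left out, 6 without Fgf5-/- replicate 1 and 5 without replicate 3, and 0 meiosis genes passed. A condition left with 1 array is assumed to vary like the other. The cause of these changes was not tested.
Deviations from the group means were correlated across probes, which are not independent replicates. Between equally numbered samples r was 0.64 in culture, which with 2 per group is 1 independent value. In sorted cells r was -0.42, -0.16 and -0.15, so that there equally numbered samples share only a number. Whether equal numbers of GS cells mark a shared culture or day is not stated and was not tested. With the replicate number as a block, 0 probes passed for FGF5 (2481 at an unadjusted p under 0.05), 0 for genotype (1561) and 23333 between cultured and sorted cells, where the same 22 meiosis genes passed. In the sorted cells the samples did not correlate best with their own number. Dim probes, near background, are the least certain.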
